A study of Mus musculus with 6 samples.

Results

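The SLC25 mitochondrial carriers were examined in inguinal white adipose tissue, a subcutaneous fat depot, of male mice exposed to arsenic. A gene was counted as a carrier where its symbol in the table was Slc25a followed by a number, which gave 39 of the 13490 genes, and the members were sorted by the substrate each protein is known to carry. The arsenite group was 3 wild-type C57BL/6J males that drank 300 ppb sodium arsenite, and the water group 3 wild-type C57BL/6J males that drank distilled water, both for 9 weeks and both 15 weeks old. RNA was sequenced from the whole depot, which holds adipocytes, vessels, immune cells and any adherent muscle. The files gave the authors' mean per group for each gene, so no value per mouse, no SD and no test between mice stands behind the values below. The depth of single libraries is unknown beyond the round figure in the labels, 20M mapped reads. Whether the mice of a group shared a cage or litter is not stated.

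SLC25 proteins are small carriers of the inner mitochondrial membrane that exchange nucleotides, phosphate, carboxylates, amino acids, cofactors and metals between cytosol and matrix. In fat they serve lipid synthesis and lipid oxidation alike: the citrate carrier exports the carbon from which fatty acids are made, and the acylcarnitine carrier brings fatty acids in for oxidation. The uncoupling proteins of thermogenic adipocytes belong to the same family but carry other symbols. In the deposited gene ontology annotation, all 39 members were assigned to an organelle inner membrane, and only 2 to a component naming mitochondria. The inner-membrane term was also given to Slc25a17 and Slc25a46, placed below in the peroxisome and the outer membrane. The symbols fixed for the family numbered 48, and the other 9 (Slc25a2, Slc25a13, Slc25a18, Slc25a21, Slc25a31, Slc25a41, Slc25a43, Slc25a52 and Slc25a54) did not occur among the symbols of the authors' table. They were therefore not analysed here.

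Start-site sequences are shown for 3 carriers whose ratios between the groups differed, the citrate carrier Slc25a1, the acylcarnitine carrier Slc25a20 and the ATP-Mg/phosphate carrier Slc25a25. They come from RefSeq on GRCm38.p6, run 5′ to 3′ on the gene's strand and hold 250 bases before and 50 bases after an annotated start. Capitals mark CACGTG (E-box), CCGGAAGT (ETS element) or TGACGTCA (cAMP response element). Each window shown holds 1 of these, while the window of Slc25a42, the carrier with the lowest log2 ratio, holds none of them. The windows lie at chr16:17928170-17928469 on the minus strand, chr9:108661886-108662185 on the plus strand and chr2:32424017-32424316 on the minus strand. The last is 1 of 3 annotated starts of Slc25a25, and the windows of the other 2 starts hold none of the marked letters.
Slc25a1: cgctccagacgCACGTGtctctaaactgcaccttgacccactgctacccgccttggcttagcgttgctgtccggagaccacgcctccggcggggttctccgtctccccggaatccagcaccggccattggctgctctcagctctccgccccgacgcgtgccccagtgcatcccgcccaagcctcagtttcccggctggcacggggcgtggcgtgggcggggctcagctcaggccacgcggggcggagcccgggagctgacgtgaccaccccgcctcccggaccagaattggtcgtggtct
Slc25a20: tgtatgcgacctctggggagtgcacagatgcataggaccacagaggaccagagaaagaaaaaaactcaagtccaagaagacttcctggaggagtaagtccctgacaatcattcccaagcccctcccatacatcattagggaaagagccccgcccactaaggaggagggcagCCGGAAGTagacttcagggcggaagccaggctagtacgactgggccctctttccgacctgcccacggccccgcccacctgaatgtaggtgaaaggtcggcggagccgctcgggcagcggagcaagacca
Slc25a25: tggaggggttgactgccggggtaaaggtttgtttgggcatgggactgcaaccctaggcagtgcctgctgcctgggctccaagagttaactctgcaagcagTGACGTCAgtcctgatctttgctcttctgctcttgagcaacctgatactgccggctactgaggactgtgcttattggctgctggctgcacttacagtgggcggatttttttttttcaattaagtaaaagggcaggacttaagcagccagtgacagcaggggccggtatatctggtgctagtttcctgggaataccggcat
Such windows were on hand for 30 of the 39 carriers. On either strand, CACGTG was found in 5 of the 30 (Slc25a1, Slc25a14, Slc25a15, Slc25a33 and Slc25a36), against 11.6% of the 10655 genes of the table with a window. TGACGTCA was found in 2 of the 30, Slc25a25 and Slc25a36, against 3.35%, and CCGGAAGT in 1, Slc25a20, against 8.63%. The estrogen-related receptor letters TCAAGGTCA, the NRF1 core letters CGCATGCG and the SREBP letters TCACNCCAC were found in 0 of the 30, against 0.319%, 4.12% and 1.37%. The letters AGGTCA of the nuclear receptor core site, which also lie within the first of these, were found in 4 of the 30, against 15.1%. These are matches of letters in short windows, not sites of binding.

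Most carriers had a lower mean under arsenite, none was called from the authors' PPEE, and no log2 ratio reached 1 in size. PPEE is the posterior probability of equal expression. A gene was called here at a PPEE of at most 0.05 in the authors' deposited table, a bound set for this comparison, and 0 of the 39 carriers were called, where 0.734% of all genes were (99 of 13490). Of all genes, 0.348% were called lower and 0.385% called higher. A log2 ratio here is that of the arsenite mean over the water mean after 0.574 was added to each, as in the authors' table. It was below 0 for 30 carriers and above 0 for 9, against 54.5% below 0 among all genes. The carriers' median was -0.33, with quartiles of -0.51 and -0.02, beside a median of -0.03 over all genes. At least 1.5-fold lower under arsenite were 9 carriers, where 5.79% of all genes were, and 5 of the 9 came inside that bound under at least 1 other scaling or the length adjustment. At least 1.5-fold higher was 1 carrier, where 4.92% of all genes were. For 38 of the 39 carriers, 97.4%, the PPEE in the authors' deposited table was at least 0.98, as it was for 87.1% of all genes (11752). In bulk tissue, fewer cells of a type and less RNA per cell cannot be told apart.

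**Figure D1:**
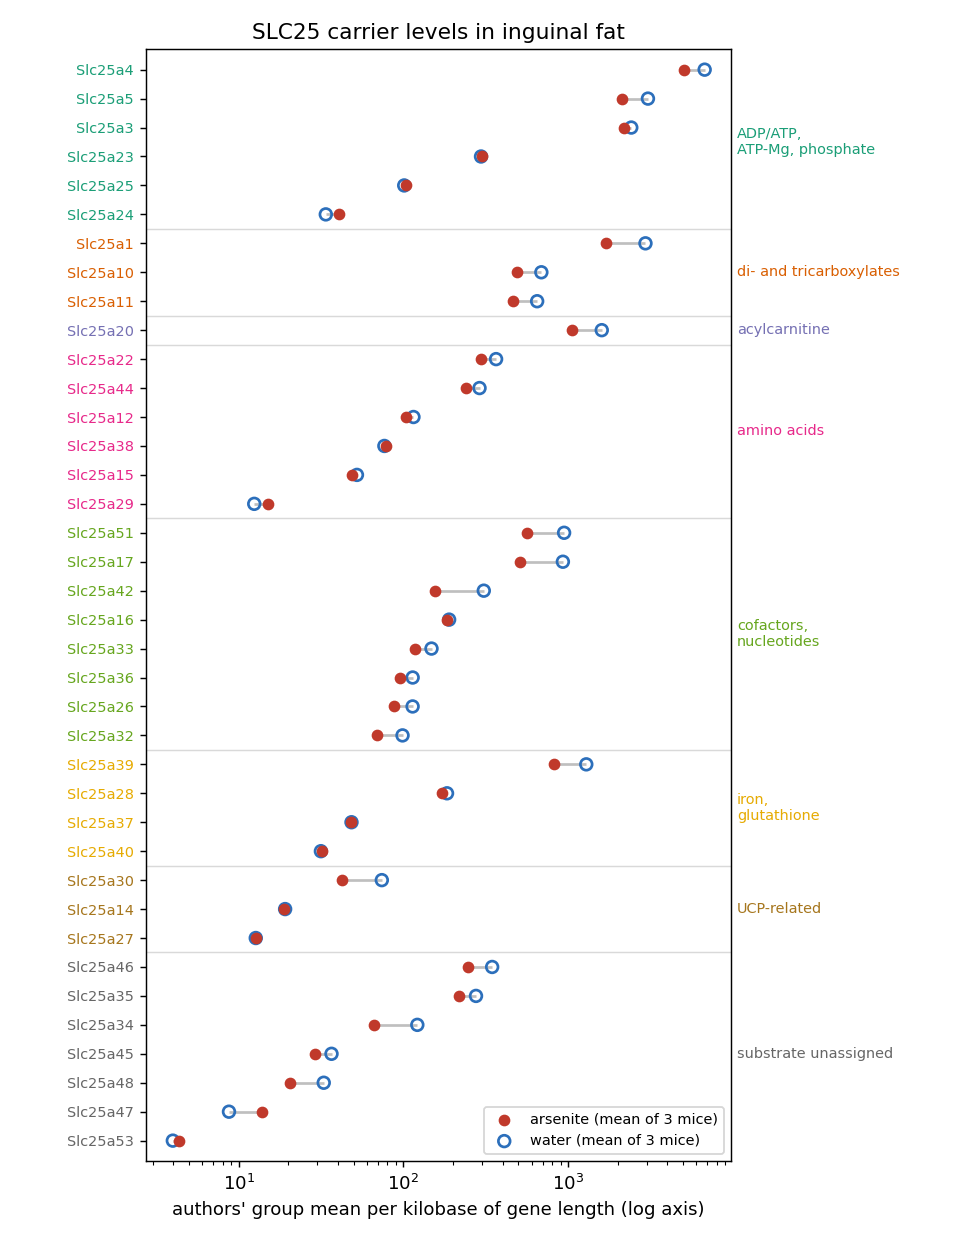
Level of 38 of the 39 SLC25 carriers under arsenite (filled) and water (open), as the authors' group mean per kilobase of gene length on a log axis, with the substrate groups set apart. Slc25a4 was at 5094 under arsenite and 6758 under water, the highest of the family in both groups, and the ATP-Mg/phosphate carriers Slc25a23, Slc25a25 and Slc25a24 had arsenite values at or above their water values.

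**Figure D2:**
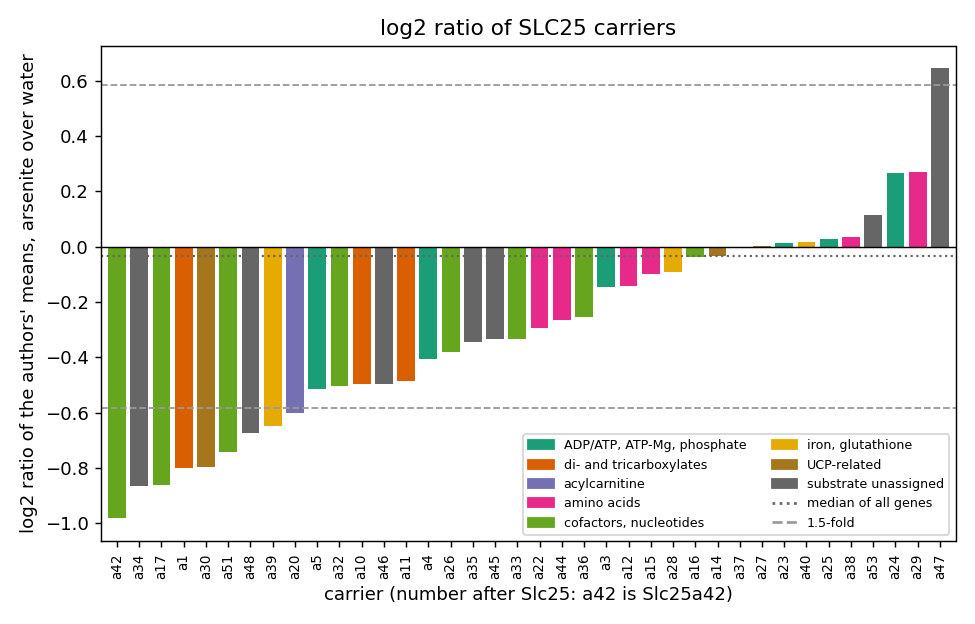
Log2 ratio of the authors' means, arsenite over water, for 38 of the 39 SLC25 carriers from lowest to highest, coloured by substrate group. Dashed lines mark 1.5-fold, passed by 9 carriers downward (Slc25a42 lowest, -0.98) and by 1 upward (Slc25a47, 0.64), and the dotted line marks the median of all genes, -0.03.

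The ADP/ATP and phosphate carriers, which supply ATP synthase with its substrates and export its product, made up much of the family's RNA. Per kilobase of gene length, Slc25a4, the ADP/ATP carrier that predominates in muscle and heart, was at 5094 under arsenite and 6758 under water. Slc25a5, the more widely expressed ADP/ATP carrier, was at 2139 under arsenite and 3058 under water. The phosphate carrier Slc25a3 was at 2187 under arsenite and 2421 under water. These 3 genes held 51.0% of the summed per-kilobase level of the 39 carriers under arsenite and 47.8% under water. Their log2 ratios were -0.41 for Slc25a4, -0.52 for Slc25a5 and -0.15 for Slc25a3, the last turning positive under quantile normalization. Slc25a5 had the lowest PPEE of the family in the authors' deposited table, 0.221, a value at or below which 164 of all genes lay. It spans chrX:36795597-36798808 in GRCm38. Of the 50-base stretches of its transcripts, 33.8% also occur in transcripts of other genes, so its value is uncertain. The corresponding share was 0% for Slc25a4 and 1.29% for Slc25a3.

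Beside Slc25a4 stood abundant skeletal muscle RNA. Of 20 muscle markers 17 were measured, with none listed at 0, and their means summed to 225968 under arsenite and 295483 under water, 2.93% and 3.43% of all means. Below 0 lay 15 of the 17, with a median log2 ratio of -0.32. The share of Slc25a4 RNA that came from muscle was not tested.

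The calcium-regulated ATP-Mg/phosphate carriers, which adjust the matrix pool of adenine nucleotides, did not have lower means under arsenite. Slc25a23 had means of 1010 under arsenite and 999.9 under water. Slc25a25 had 344 under arsenite and 337 under water, and Slc25a24 had 137 under arsenite and 114 under water. The log2 ratios were 0.01, 0.03 and 0.27. Slc25a23 and Slc25a25 were the 2 carriers above 0 among the 26 with an average of both means of at least 200. Exons of Naif1 on the opposite strand overlap 4.82% of the exonic bases of Slc25a25, and whether counting used strand is not given in the sources used here.

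The 3 carboxylate carriers had lower means under arsenite. Slc25a1, which exports citrate to the cytosol for fatty acid and sterol synthesis, had an authors' mean of 2873 under arsenite and 5005 under water, 1.74-fold lower (log2 ratio -0.80, and -0.58, inside 1.5-fold, under quantile normalization). Its gene spans chr16:17925211-17928219. Slc25a10, which exchanges malate or succinate for phosphate and is abundant in white fat, had 1951 under arsenite and 2754 under water (log2 ratio -0.50). Slc25a11, the oxoglutarate/malate carrier of the malate-aspartate shuttle, had 867 under arsenite and 1213 under water (log2 ratio -0.49). Per kilobase, the carboxylate carriers held 14.3% of the family's level under arsenite and 16.8% under water. The PPEE of these carriers in the authors' deposited table lay between 0.995 and 0.999.

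Enzymes that work next to these carriers were also at lower means, and none was called. On the citrate route, Acly, which cleaves exported citrate, had 5211 under arsenite and 12994 under water, a log2 ratio of -1.32. Malic enzyme Me1 had 7841 and the carboxylase Acaca 6140 under arsenite, against 15684 for Me1 and 11550 for Acaca under water. The citrate synthase gene Cs had a smaller ratio, -0.43. All 5 genes fixed for the route, Fasn included, lay below 0, with a median of -0.91. In the malate-aspartate shuttle, all 4 cytosolic and mitochondrial partners lay below 0 (median -0.58), Got1 with 335 under arsenite and 645 under water, and Mdh1 with 6938 under arsenite and 11639 under water. Slc25a12, the aspartate/glutamate carrier aralar of that shuttle, had a smaller ratio of -0.14, with means of 305 under arsenite and 337 under water.

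Slc25a20, the carnitine/acylcarnitine carrier through which long-chain fatty acids enter the matrix, had means of 1884 under arsenite and 2858 under water. This was 1.52-fold lower (log2 ratio -0.60), just past 1.5-fold. It came inside that bound under 3 alternatives, with log2 ratios of -0.43 under quantile normalization, -0.54 under upper-quartile scaling and -0.54 with the length trend removed. Its PPEE in the authors' deposited table was 0.998. The partners of this route were mixed: Cpt1b, the carnitine palmitoyltransferase of muscle and brown fat, had a log2 ratio of -1.11, Cpt2 -0.26 and Crat -0.27, while Cpt1a, the liver-type enzyme that also acts in white fat, had 0.48. Of the 5 partners 4 lay below 0, with a median of -0.27. Part of Slc25a20 is repetitive, with 5.61% of its 50-base stretches also found in other transcripts.

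Among the carriers of cofactors and nucleotides, all 9 measured members had lower means under arsenite, with a median log2 ratio of -0.39. Slc25a42, which brings coenzyme A into mitochondria, had the lowest log2 ratio of the family, -0.98, with means of 495 under arsenite and 979 under water, 1.98-fold lower. Its gene spans chr8:70184340-70212281. Slc25a16, also linked to coenzyme A uptake, had 580 under arsenite and 595 under water, a log2 ratio of -0.04 whose sign changed under 2 scalings. Per kilobase, Slc25a42 was at 156 and Slc25a16 at 185 under arsenite, against 308 for Slc25a42 and 190 for Slc25a16 under water.

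Slc25a17, a carrier of coenzyme A, FAD and NAD in the peroxisome, had 854 under arsenite and 1551 under water (log2 ratio -0.86). Slc25a51, the mitochondrial NAD carrier, had 2512 under arsenite and 4200 under water (log2 ratio -0.74). These were the other 2 members of the group past 1.5-fold, and Slc25a51 came inside that bound under quantile normalization (log2 ratio -0.52). Slc25a32, linked to folate and FAD transport, had 205 under arsenite and 291 under water, a log2 ratio of -0.50. Slc25a26, the S-adenosylmethionine carrier, and the pyrimidine nucleotide carriers Slc25a33 and Slc25a36 had log2 ratios of -0.38, -0.33 and -0.25. Methylation of arsenic also uses S-adenosylmethionine, in the cytosol. The PPEE of the 9 genes of this group in the authors' deposited table was 0.981 or higher.

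The amino acid carriers had smaller ratios, none past 1.5-fold, with a median of -0.12 over 6 genes. Slc25a44, which imports branched-chain amino acids and is required for their oxidation in brown fat, had 840 under arsenite and 1011 under water (log2 ratio -0.27). The genes of branched-chain oxidation beside it had a median of -0.13 over 5 genes, from -0.66 for Dld to 0.15 for Bcat2. The glutamate carrier Slc25a22 had 771 under arsenite and 946 under water (log2 ratio -0.29). Slc25a15, the ornithine carrier, had a log2 ratio of -0.10. Slc25a38, the glycine carrier that feeds heme synthesis, and Slc25a29, a carrier of basic amino acids, had 0.04 and 0.27. Slc25a29 was low, with means of 29.6 under arsenite and 24.4 under water.

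Iron and glutathione carriers were split between 1 lower gene and 3 near 0. Slc25a39, which imports glutathione into mitochondria, had means of 1382 under arsenite and 2166 under water, 1.57-fold lower (log2 ratio -0.65). It came inside 1.5-fold under quantile normalization (-0.52) and with the length trend removed (-0.58). Its relative Slc25a40 had 89.2 under arsenite and 88.2 under water. Per kilobase, Slc25a39 stood 25.8-fold above Slc25a40 under arsenite and 40.9-fold above it under water. The mitoferrin genes, which import iron, were close to 0: Slc25a37 had 201.1 under arsenite and 201.4 under water, and Slc25a28 had 271 under arsenite and 289 under water. Slc25a37 and Slc25a38 are known to be abundant in erythroid cells, and 4 of 9 erythroid markers were measured, with means summing to 6283 under arsenite and 7042 under water. The part of blood RNA in their levels was not tested.

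Of the carriers related to uncoupling proteins, Slc25a30 had means of 72.3 under arsenite and 126 under water (log2 ratio -0.80), while Slc25a14 and Slc25a27 had log2 ratios of -0.03 and 0.00 at means between 28.7 and 34.2. Of the 7 members given no substrate group here, Slc25a34 had 179 under arsenite and 326 under water, a log2 ratio of -0.86. Slc25a48 had 30.6 under arsenite and 49.2 under water (log2 ratio -0.67, and -0.58, inside 1.5-fold, with the length trend removed). Slc25a46, an outer-membrane member linked to mitochondrial shape, had 1072 under arsenite and 1512 under water (log2 ratio -0.50). Slc25a35 and Slc25a45 had log2 ratios of -0.35 and -0.33. For Slc25a35, 31.3% of exonic bases overlap exons of Rangrf on the opposite strand. Slc25a47, known as a liver carrier, was the single member at least 1.5-fold higher, at means of 22.3 under arsenite and 14.0 under water. Slc25a53 had 13.9 under arsenite and 12.8 under water, the lowest mean of the family in both groups.

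**Figure D3:**
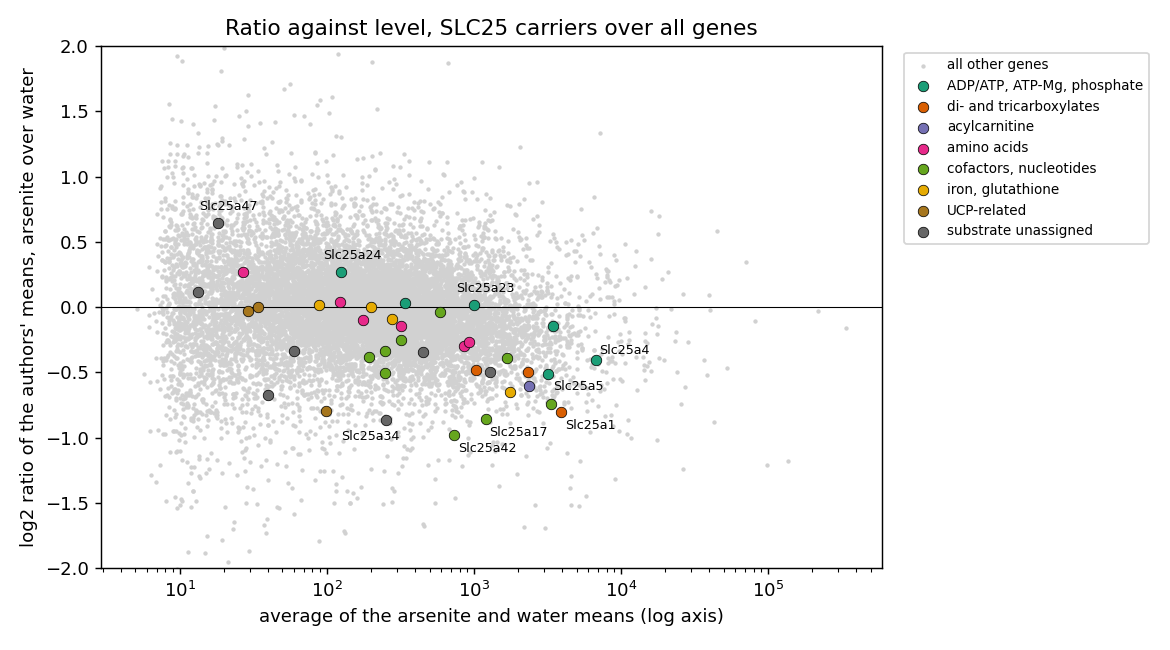
Log2 ratio of the authors' means, arsenite over water, against the average of both means on a log axis, for the SLC25 carriers (coloured by substrate group) over all other genes (grey); 26 other genes lie beyond 2 log2 units and are not drawn. Of the 26 carriers with an average of at least 200, 24 lie below 0, and of the 13 below that level, 6 do.

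Among the abundant carriers nearly all had lower means under arsenite. Of 26 carriers with an average of both means of at least 200, 24 had a log2 ratio below 0 (median -0.40). Of the 6456 genes at that level 61.4% did (median -0.08). Of the 13 carriers under that level 6 lay below 0 (median 0.00), where 48.1% of the 7034 genes did (median 0.01). With an average of 200 to 1000, 12 of 13 carriers lay below 0, against 58.7% of all genes at that level. At 1000 or more, 12 of 13 carriers lay below 0 (median -0.50), against 70.5% of all genes (median -0.17). Under quantile normalization, 21 of the 26 carriers at 200 or more lay below 0, and 3255 of the 6456 genes. Spearman's rho between level and log2 ratio was -0.55 across the 39 carriers (Pearson's r -0.55) and -0.16 across all genes, as a description, since genes share libraries and are not independent replicates. Against gene length, rho was 0.17 across the carriers and 0.21 across all genes. The splits by level were chosen after the values were seen.

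**Figure D4:**
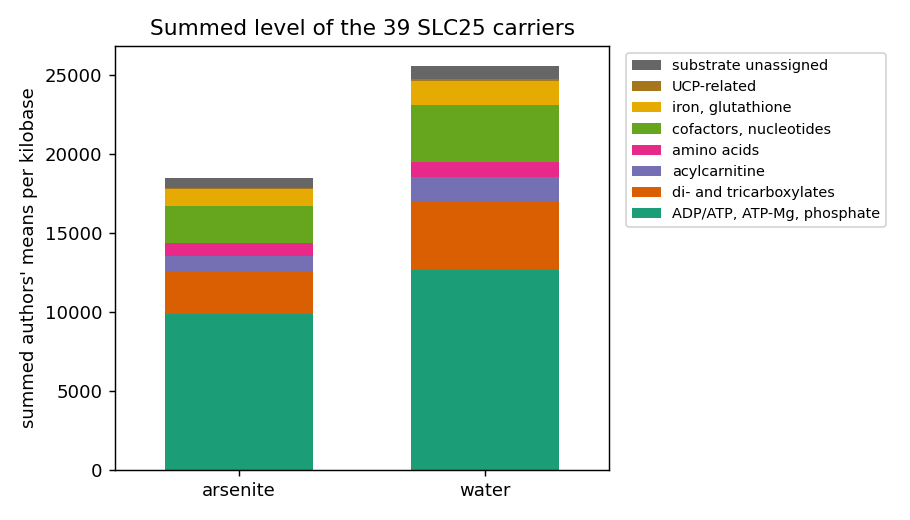
Summed level of the 39 carriers under arsenite and under water, as the authors' means per kilobase of gene length stacked by substrate group. The stack reaches 18480 under arsenite and 25583 under water, and the ADP/ATP, ATP-Mg and phosphate carriers make up 53.4% of it under arsenite and 49.5% under water.

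Summed over the family, the authors' means came to 33721 under arsenite and 46871 under water, a ratio of 0.719. The sum of all 13490 means had a ratio of 0.896, so the carriers held 0.437% of it under arsenite and 0.544% under water. Per kilobase, the summed level was 18480 under arsenite and 25583 under water. The order of the first carriers was close in both groups: Slc25a4 had rank 1 in both, Slc25a3 had rank 2 under arsenite and 4 under water, and Slc25a1 had rank 4 under arsenite and 3 under water. The cofactor and nucleotide group held 12.9% under arsenite and 14.2% under water, and the amino acid group 4.25% under arsenite and 3.56% under water. No spread over mice is available for these shares.

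**Figure D5:**
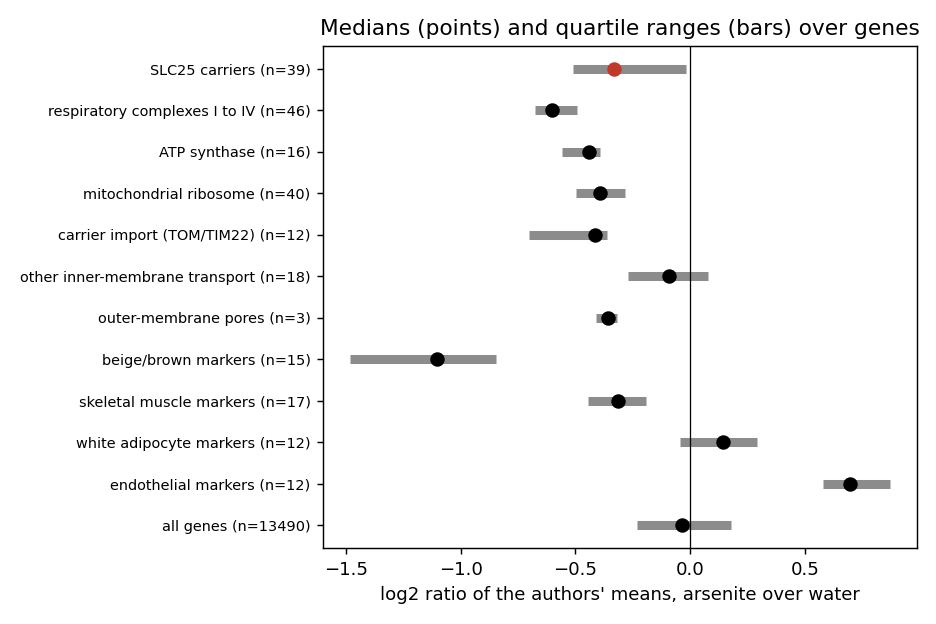
Median (point) and quartile range (bar) of the log2 ratio, arsenite over water, over the genes of each list, with the number of genes in brackets. The SLC25 carriers have a median of -0.33, between -0.60 for respiratory complexes I to IV and -0.03 for all genes. Ratios are drawn without adjustment for gene length. With the length trend removed, the medians are -0.28 for the carriers and -0.34 for complexes I to IV.

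Other genes were set beside the carriers. The 190 other genes annotated to an organelle inner membrane, a set formed after the values were seen, had a median log2 ratio of -0.26. Of these 190 genes 75.3% lay below 0, close to the 76.9% of the carriers. That annotation is not limited to mitochondria, since the 190 include a protein of the inner nuclear membrane, Tmem43. All 46 genes of respiratory complexes I to IV lay below 0 (median -0.60). So did 15 of 16 genes of ATP synthase and its inhibitor (median -0.44), the inhibitor gene alone lying above 0. All 40 mitochondrial ribosome genes lay below 0 (median -0.40). The genes of these lists are shorter, with median lengths of 700, 725.5 and 1417.5 bases in that order, against 2479 for the carriers. With the length trend removed, the medians were -0.34, -0.22 and -0.27 in the same order, against -0.28 for the carriers. Of the 12 genes that bring carriers into the membrane, 11 lay below 0 (median -0.41, and -0.37 with the length trend removed). Among them, Timm8b, a chaperone of the intermembrane space, had 574 under arsenite and 943 under water. Tomm70a, the import receptor for carriers, had 1215 under arsenite and 1587 under water. The outer-membrane pore genes Vdac1, Vdac2 and Vdac3 had log2 ratios of -0.28, -0.36 and -0.46. Inner-membrane transporters of other families were nearer 0 (median -0.09 over 18 genes), but both pyruvate carrier subunits, Mpc1 and Mpc2, had log2 ratios of -0.73 and -0.72. Across these lists and the 190 genes, 3 genes were called, and all 3 were among the 190. Of all genes, 0.734% were called (99 of 13490), and the shares were not tested against each other. The 3 genes are named because they were called, after their values were seen. Mrpl17, a mitochondrial ribosome gene, had means of 537 under arsenite and 688 under water, and the authors' deposited table gave it a PPEE of 0.00104. Dhrs1 was also lower, with 266 under arsenite and 370.5 under water (PPEE 0.00455 in the authors' deposited table). Tmem43, a protein of the inner nuclear membrane, was higher, with 1416 under arsenite and 928 under water (PPEE 2.84e-05 in the authors' deposited table). No test of a difference between the lists was possible.

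The family members under other symbols did not share a direction. Ucp1, the uncoupling protein of thermogenic fat, had means of 15854 under arsenite and 37406 under water (log2 ratio -1.24). Ucp2 had 668 under arsenite and 531 under water (log2 ratio 0.33), Ucp3, the muscle form, 945 under arsenite and 910 under water (log2 ratio 0.06). The outer-membrane members Mtch1 and Mtch2 had log2 ratios of -0.08 and -0.52. Of 15 beige and brown fat markers 13 lay below 0 (median -1.11), with means that summed to 29473 under arsenite and 71938 under water and none listed at 0. White adipocyte markers had a median of 0.15 over 12 genes and endothelial markers 0.70 over 12 genes. Fibroblast, macrophage and lymphocyte markers had medians of 0.19 over 10 genes, -0.10 over 10 and -1.12 over 5 measured of 10. The lymphocyte median rests on low means, that of Lck, at 10.1 under arsenite and 22.7 under water. Ptprc, the most abundant of the 5, had 213 under arsenite and 244 under water (log2 ratio -0.20). Lymphocyte means summed to 256 under arsenite and 329 under water. The part of these cell types in the carrier ratios was not tested, and cell numbers cannot be told apart from RNA per cell.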

How the data were processed

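RNA of inguinal fat was sequenced from 3 arsenite and 3 water mice. Per the labels' protocols, reads were aligned to GRCm38, and Bowtie2, HISAT and RSEM are listed in the submitters' processing notes. How reads were counted, scaled between libraries and filtered is not given in the sources used here. For each gene the authors deposited a group mean of a count-like signal, a log2 ratio of treatment over control, a PPEE (named as in EBSeq, and not a p-value) and a gene length. Control was read as water. The deposited log2 ratio equals that of the means after 0.574 is added, to within 3.62e-08. Single mice were not analysed here, and no test was run. Levels were compared between genes per kilobase.

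The members and lists were chosen with earlier results of these data known. The carriers are named, except 1 that is counted but not reported here, and outside the family the Ucp and Mtch genes, their partner genes and at most the 4 most abundant members of other lists, plus 3 called genes (Mrpl17, Dhrs1 and Tmem43) named after their values were seen. The PPEE bound of 0.05 was chosen for this work. All 39 identifiers matched RefSeq. Shared stretches used GENCODE M21 transcripts. Alternatives were quantile and upper-quartile scaling, a constant of 0.1, an average of at least 50, a lowess of span 0.3 on gene length, PPEE bounds of 0.01 and 0.1, a stricter and a looser fold, and an enlarged family. Functions were tested on simulated data. The work used statsmodels 0.14.6, scipy 1.17.1 and pandas 2.3.3 under Python 3.11.15, with matplotlib 3.10.9 and numpy 2.4.6.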

Additional observations from a re-analysis of the deposited data

How the results depend on the processing

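No paired analysis was possible because the files give means per group and the mice of the 2 groups carry different numbers. Leaving out a replicate could not be run for the same reason. The 0 carriers called stayed at 0 with PPEE bounds of 0.01 and 0.1, an average of both means of at least 50 and the enlarged family. Over all 13490 genes, 63 were called at a bound of 0.01 and 119 at 0.1. The median log2 ratio of the carriers was -0.22 under quantile normalization and between -0.35 and -0.27 under the other alternatives. Carriers below 0 numbered from 27 to 30 of 39 under each scaling and the length adjustment. Of all genes, 50.1% lay below 0 under quantile normalization, 46.5% under upper-quartile scaling and 50.4% with the length trend removed. The 9 carriers lower by 1.5-fold numbered 5 under quantile normalization, 6 with the length trend removed, 0 at a 2-fold bound and 20 at the looser fold bound. Those lost were Slc25a1, Slc25a20, Slc25a39 and Slc25a51 under quantile normalization, Slc25a20, Slc25a39 and Slc25a48 with the length trend removed, and Slc25a20 under upper-quartile scaling. The 1 higher carrier became 0 at a 2-fold bound and 0 with an average of at least 50. The shares of all genes past the fold bounds under these alternatives were not counted. Signs changed for 5 carriers under quantile normalization (Slc25a3, Slc25a16, Slc25a27, Slc25a37 and Slc25a40), 3 with upper-quartile scaling (Slc25a14, Slc25a16 and Slc25a37) and 1 with the length trend removed (Slc25a14), all with absolute log2 ratios of at most 0.15. The causes were not tested. The low carriers rest on few reads, and without values per mouse their error is unknown.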
